A study of Mus musculus with 9 samples.

Results

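Metallothioneins and the proteins that sense and move zinc were examined in bulk RNA-Seq libraries of mouse skin from control mice (n = 5) and *Supt6*-KO mice (n = 4). The members were 7 named genes, found among the 17943 rows of the count table by their NCBI gene identifiers. They comprise the metallothioneins *Mt1*, *Mt2* and *Mt4*, the zinc-sensing transcription factor *Mtf1*, the zinc exporter *Slc30a1* and the zinc importers *Slc39a4* and *Slc39a14*. All 7 passed the filter of at least 10 counts summed over the 9 mice, which left 16426 genes for testing. The *Supt6*-KO mice carried K14-CreERT and floxed *Supt6* alleles (K14-CreERT; *Supt6* fl/fl) and were given tamoxifen. The controls are labelled WT, and the study's text gives their genotype as *Supt6* fl/fl, naming no transgene, and says that they received corn oil. By that text the floxed alleles were common to both groups, whereas the K14-CreERT genotype, the tamoxifen and the loss of *Supt6* came together and cannot be told apart. All skin was taken on day 10 after the last injection. The labels name the tissue as ear and the study's text as dorsal skin, and no age in weeks is given in the labels. The Cre is driven by the keratin 14 promoter, which is active in basal keratinocytes and their descendants, so the fibroblasts, vessels and immune cells of the sample are not its targets. The libraries held 29627334 to 30967109 counts per mouse.

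Zinc is both a cofactor of very many proteins and toxic in excess, and cells hold its free level low. Metallothioneins are small cysteine-rich proteins that bind zinc and copper, *Slc30a* proteins move zinc out of the cytosol and *Slc39a* proteins bring it in. Metal-responsive transcription factor MTF-1 binds metal response elements when zinc rises and drives *Mt1*, *Mt2* and *Slc30a1*. *Mt1* and *Mt2* are made in most tissues, whereas *Mt4* is known from differentiating stratified squamous epithelium, and skin is an organ in which zinc shortage shows early.

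Levels below are TMM-scaled CPM, that is, counts relative to the library total multiplied by a TMM factor, and a gene was called higher or lower in *Supt6*-KO skin when edgeR's quasi-likelihood test gave an adjusted p under 0.05 and the change was at least 2-fold. *Supt6* (chr11:78206749-78245972, reverse strand, GRCm38), which encodes the histone chaperone and elongation factor SPT6, had 74.5, 56.6, 63.6, 91.1 and 96.7 CPM in the controls and 28.6, 24.1, 21.9 and 28.4 CPM in the *Supt6*-KO mice. The groups did not overlap, and the log2 fold change was -1.57 (standard error 0.18, edgeR adjusted p = 1.3e-05). The TMM factors were 1.198 to 1.315 in the controls and 0.674 to 0.91 in the *Supt6*-KO mice, so with plain library totals every *Supt6*-KO level is lower relative to the controls, and the place of a mouse above or below the controls is given for the TMM scale unless another is named. A correction for transcript length brought *Supt6* to -0.79, which is under the 2-fold limit. The mice were separate animals, and the unadjusted exact permutation test over 5 and 4 mice cannot give a p under 0.0159.

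The cell types in the samples were read from marker lists. Keratinocyte genes were abundant in every library, and differentiated keratinocyte markers (*Krt1*, *Krt10*, *Ivl*, *Lor* and *Sbsn*) summed to 18114 to 20610 CPM in the controls. In *Supt6*-KO mice 1 to 3 this sum was 36035, 33224 and 32670 CPM, and in *Supt6*-KO mouse 4 it was 17109 CPM. The 4 stress keratins *Krt6a*, *Krt6b*, *Krt16* and *Krt17* summed to 274 to 564 CPM in the controls and to 5513, 2949, 5377 and 22838 CPM in the *Supt6*-KO mice. Basal keratinocyte markers summed to 10302 to 11729 CPM in the controls and to 7983, 5480, 6702 and 13724 CPM in the *Supt6*-KO mice. This sum was below every control in mice 1 to 3 and above every control in mouse 4. *Krt15* and *Trp63* of this list were called lower. Both, and *Krt5*, were below every control in all 4 *Supt6*-KO mice, as were 31.8% of all genes tested. *Krt14* went the other way without a call. It had 2972 to 3809 CPM in the controls and 4730, 3114, 3962 and 9613 CPM in the *Supt6*-KO mice, so the high sum of mouse 4 rests on *Krt14*. *Supt6*-KO mouse 4 thus stood apart from the other *Supt6*-KO mice in the sums of all 3 keratinocyte lists, and the log2 fold change of each member is given with and without it.

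Cells from outside the epidermis also contributed. Of the other lists, all 4 adipocyte, all 4 skeletal muscle and all 4 hair shaft markers were lower in *Supt6*-KO skin, as were 3 of 4 endothelial, 2 of 5 fibroblast and 2 of 4 T cell markers, where 24.9% of all genes tested were lower and 20.9% higher. Cartilage genes were present in the controls, where the list summed to 148 to 473 CPM against 18.2 to 22.8 CPM in *Supt6*-KO skin, and its 3 tested genes *Acan*, *Col2a1* and *Comp* were lower. The hair shaft list ranged from 1.53 to 1393 CPM among the controls themselves. In the *Supt6*-KO mice it summed to 1.46, 1.73, 1.78 and 1.11 CPM, so the lowest control lay within their range. All 5 neutrophil markers rose, 3 of 5 macrophage markers rose and 1 fell, and 3 of 4 melanocyte markers rose. The fibroblast sum was 3558 ± 1992 CPM (SD, n = 5) in the controls and 1062 ± 204 CPM (SD, n = 4) in *Supt6*-KO skin. In such bulk samples, fewer cells of a type and less RNA per cell cannot be told apart, and the part of these shifts in the member results was not tested.

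*Mt1*, *Mt2* and *Mt4* lie within one cluster on mouse chromosome 8 and are all on the forward strand (GRCm38). *Mt1* spans chr8:94178883-94180327, *Mt2* chr8:94172618-94173567 and *Mt4* chr8:94137204-94139031 in the RefSeq annotation. Their coding sequences, read from the GENCODE M21 transcripts and split over 3 exons each, are shown because their likeness decides whether reads can be told apart and because the density of cysteine codons is what makes a metallothionein. Cysteine codons are in capitals.
Mt1: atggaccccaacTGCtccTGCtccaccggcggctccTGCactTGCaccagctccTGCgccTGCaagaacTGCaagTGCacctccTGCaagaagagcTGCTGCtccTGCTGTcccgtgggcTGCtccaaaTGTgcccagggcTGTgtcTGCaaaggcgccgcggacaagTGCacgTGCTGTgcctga
Mt2: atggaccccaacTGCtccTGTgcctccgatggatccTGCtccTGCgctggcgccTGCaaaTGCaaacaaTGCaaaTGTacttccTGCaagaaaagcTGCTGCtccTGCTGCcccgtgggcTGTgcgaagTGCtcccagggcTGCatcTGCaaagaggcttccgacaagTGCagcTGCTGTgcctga
Mt4: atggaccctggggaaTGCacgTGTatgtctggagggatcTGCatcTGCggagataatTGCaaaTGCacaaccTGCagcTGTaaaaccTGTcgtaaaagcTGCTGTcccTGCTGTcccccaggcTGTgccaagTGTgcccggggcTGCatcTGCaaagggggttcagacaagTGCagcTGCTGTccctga
Each coding sequence holds 20 cysteine codons, which is 32.8% of the 61 codons before the stop in *Mt1* and *Mt2* and 32.3% of the 62 in *Mt4*. *Mt1* and *Mt2* were identical at 79.6% of aligned coding bases, *Mt2* and *Mt4* at 73.2% and *Mt1* and *Mt4* at 66.8%. The longest stretch shared without a mismatch was 20 bases between the *Mt1* and *Mt2* transcripts, and every count of the 3 genes was a whole number, whereas RSEM gives fractions where reads are divided between genes.

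Of the 7 members, *Mt4* was called higher and *Slc39a4* lower in *Supt6*-KO skin, and the other 5 were called neither way. That is 1 of 7 in each direction, where 20.9% of all genes tested were higher and 24.9% were lower, together 45.8%. The median log2 fold change of the members was 0.00, against -0.07 over all genes. No member had all *Supt6*-KO mice above all controls, which 28.9% of genes did, and 1 member, *Slc39a4*, had all of them below, which 31.8% of genes did. The number of calls depended on the scaling of the libraries. With library totals in place of TMM factors the share of calls that were higher went from 45.6% to 17.8%, and the middle of all log2 fold changes went from -0.07 to -0.76, so each change is to be read relative to the bulk of the genes.

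**Figure D1:**
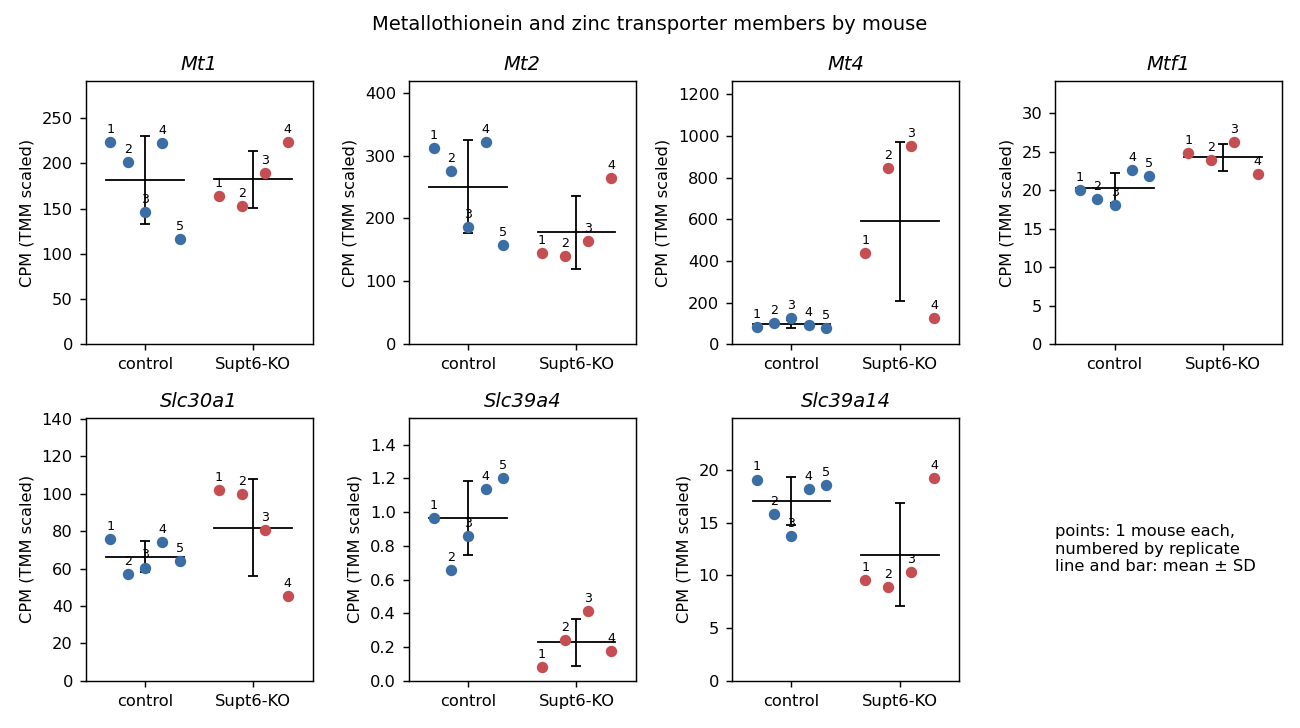
Level of each of the 7 members in TMM-scaled CPM (vertical axis, from 0) in the 5 control mice (blue) and 4 Supt6-KO mice (red), with 1 point per mouse numbered by replicate and the mean ± SD of each group in black. Supt6-KO mouse 4 lies among the controls for Mt4 and above every control for Slc39a14, and all 4 Supt6-KO mice lie below every control for Slc39a4.

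*Mt4* (NCBI gene 17752), the epithelial metallothionein, was the 1 metallothionein called under TMM scaling. It had 80.6, 103, 125, 92.5 and 76.4 CPM in the controls and 439, 845, 953 and 124 CPM in the *Supt6*-KO mice. *Supt6*-KO mice 1 to 3 were far above every control, while mouse 4 lay inside the control range. The means were 95.5 ± 19.6 CPM (SD, n = 5) and 590 ± 382 CPM (SD, n = 4), a 6.18-fold difference, and *Mt4* rose with a log2 fold change of 2.63 (standard error 0.45, edgeR adjusted p = 0.0003). The exact two-sided permutation test gave p = 0.0317, unadjusted. With *Supt6*-KO mouse 4 left out, the log2 fold change was 2.97 (edgeR adjusted p = 1.8e-06). The deposited TPM, which has no TMM factor and is relative to length, puts mouse 4 at 1281 TPM, below every control (1579 to 2051 TPM). The summed level of the differentiated keratinocyte markers, given above, was higher than every control in mice 1 to 3 and lower than every control in mouse 4. *Krt10*, the most abundant of them, did likewise, at 13622 to 15479 CPM in the controls and 19562, 19847, 18223 and 7775 CPM in the *Supt6*-KO mice. *Krt1* was at 599 to 1028 CPM in the controls and at 13102, 10209, 11120 and 7264 CPM in the *Supt6*-KO mice. *Krt1* and *Ivl* rose (log2 fold changes 3.65 and 1.99) and were above every control in mouse 4 too. *Lor* fell by 1.23 on the log2 scale, and *Sbsn* was at -0.25 without a call, both below every control in all 4 *Supt6*-KO mice. No gene of the list was at 0 in any group, and the part of keratinocyte make-up in the *Mt4* difference was not tested. The call for *Mt4* was lost when the trend of counts with transcript length was taken out, at a log2 fold change of 0.78 (edgeR adjusted p = 0.047) with annotated lengths and 0.27 (edgeR adjusted p = 0.43) with lengths read back from the deposited values.

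*Mt1* (NCBI gene 17748), one of the pair of broadly expressed metallothioneins, was at the same mean level in both groups. It had 224, 202, 146, 223 and 116 CPM in the controls and 164, 153, 189 and 224 CPM in the *Supt6*-KO mice, so the *Supt6*-KO values lay within the range of the controls. The means were 182 ± 48.9 CPM (SD, n = 5) and 183 ± 31.4 CPM (SD, n = 4). The log2 fold change was 0.00, with a 95% interval from -0.45 to 0.46 (edgeR adjusted p = 0.99). A 2-fold change in either direction is outside that interval under TMM scaling, and leaving out *Supt6*-KO mouse 4 gave -0.11 (edgeR adjusted p = 0.64). With the length trend removed, however, the estimate was -0.83 (edgeR adjusted p = 0.0062) with annotated lengths and -1.51 (edgeR adjusted p = 0.00077) with lengths read back from the deposited values, so the level of *Mt1* relative to genes of its own length was lower.

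*Mt2* (NCBI gene 17750), the partner of *Mt1*, had 312, 275, 187, 322 and 158 CPM in the controls and 145, 140, 164 and 264 CPM in the *Supt6*-KO mice. *Supt6*-KO mice 1 and 2 were below every control, and the other two overlapped them. The means were 251 ± 74.4 CPM (SD, n = 5) and 178 ± 58.0 CPM (SD, n = 4). The log2 fold change was -0.49 (standard error 0.26, 95% interval -1.06 to 0.07, edgeR adjusted p = 0.11), which is not larger than the spread between mice, and the exact permutation p was 0.111. With *Supt6*-KO mouse 4 left out, the log2 fold change was -0.75 (edgeR adjusted p = 0.012), short of 2-fold. *Mt2* was called lower with library totals (-1.14, edgeR adjusted p = 0.0051) and with either length correction (-1.84 and -1.93).

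A ratio of 2 genes within a library does not depend on how libraries are scaled, and the ratio of *Mt2* to *Mt1* counts separated the groups. It was 1.39, 1.36, 1.28, 1.44 and 1.36 in the controls and 0.88, 0.917, 0.866 and 1.18 in the *Supt6*-KO mice. All *Supt6*-KO values lay under the lowest control, with mouse 4 nearest. The means were 1.366 ± 0.058 (SD, n = 5) and 0.961 ± 0.148 (SD, n = 4). Relative to *Mt1*, then, *Mt2* counts were fewer in *Supt6*-KO skin, but the ratio does not say which of the genes moved. This ratio was chosen after the values of both genes had been seen and is given without a test. The ratio of *Mt4* to *Mt1* counts was 0.36 to 0.861 in the controls and 2.67, 5.52, 5.04 and 0.552 in the *Supt6*-KO mice, where mouse 4 was again within the control range.

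**Figure D2:**
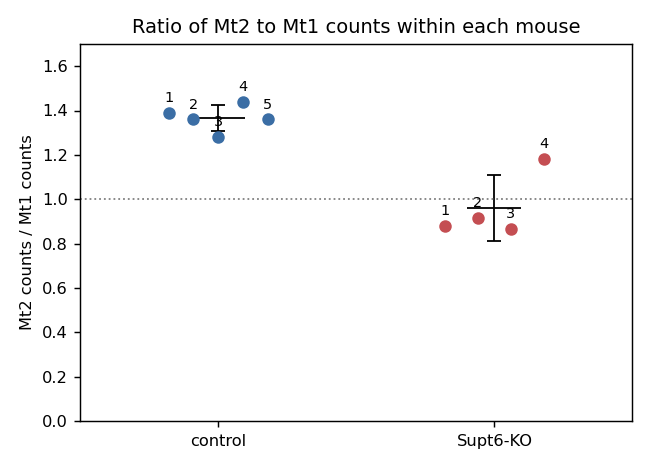
Ratio of Mt2 counts to Mt1 counts (vertical axis, from 0, no unit) in each control (blue) and Supt6-KO mouse (red), 1 point per mouse numbered by replicate, with mean ± SD in black and a dotted line at equal counts. All 5 controls lie between 1.28 and 1.44 and all 4 Supt6-KO mice between 0.866 and 1.18.

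Metal response elements, the sites that MTF-1 binds, have a short core that was spelled here as TGCACNC or TGCGCNC (N is any base) and searched on both strands of RefSeq promoter windows (GRCm38.p6), which run from 250 bases before to 50 bases after an annotated start. Of 32841 such windows, 25.7% held at least 1 match, 2% at least 3 and 0.5% at least 4. The *Mt2* window held 4 matches, the *Mt1* window 3, the *Slc30a1* window 2, the *Mt4* and *Mt3* windows 1 each and the *Mtf1* window 0. The RefSeq starts of *Mt1* and *Mt2* used here lie 222 and 230 bases ahead of their coding starts and that of *Mt4* 38 bases, so the windows do not cover like stretches, and those of *Mt1* and *Mt2* may miss sequence nearer to the coding start, where matches were not counted. The 250 bases ahead of *Mt4* (chr8:94136954-94137203, forward strand), the metallothionein that rose, are shown with the match, here on the reverse strand, in capitals.
Mt4 promoter: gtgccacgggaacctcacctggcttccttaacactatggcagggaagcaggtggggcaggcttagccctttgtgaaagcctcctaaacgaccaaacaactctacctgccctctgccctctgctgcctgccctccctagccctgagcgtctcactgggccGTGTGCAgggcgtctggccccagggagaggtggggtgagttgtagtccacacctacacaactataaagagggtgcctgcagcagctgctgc
A match to these letters is a description of the sequence and not evidence of binding. *Slc39a4* and *Slc39a14* were not searched.

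*Mtf1* (NCBI gene 17764, chr4:124802549-124849800, forward strand), the zinc sensor itself, had 20, 18.8, 18.1, 22.6 and 21.9 CPM in the controls and 24.9, 23.9, 26.3 and 22.1 CPM in the *Supt6*-KO mice. *Supt6*-KO mice 1 to 3 were above every control and mouse 4 was just below the highest control. The means were 20.3 ± 1.93 CPM (SD, n = 5) and 24.3 ± 1.78 CPM (SD, n = 4), and the log2 fold change of 0.26 (standard error 0.12, edgeR adjusted p = 0.062) missed the threshold. The permutation test, exact and unadjusted, gave p = 0.0317. Leaving out *Supt6*-KO mouse 4 gave 0.30 (edgeR adjusted p = 0.033), which passes the p threshold but not the 2-fold limit. In deposited TPM mouse 4 was below every control, at 2.39 against 3.55 to 5.65 TPM. *Mtf1* has the longest transcript of the members, 7631 bases, and was called higher with either length correction (log2 fold changes 1.12 and 1.22), whereas library totals turned it to -0.44. Its counts were not whole, so some of its reads were divided with another gene.

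*Slc30a1* (NCBI gene 22782, chr1:191906697-191913248, forward strand), the exporter of the plasma membrane and a known target of MTF-1, had 75.7, 57.2, 60.6, 74.1 and 64.0 CPM in the controls and 102, 99.7, 80.4 and 45.6 CPM in the *Supt6*-KO mice. *Supt6*-KO mice 1 to 3 were above every control and mouse 4 below every control. The log2 fold change was 0.31 (standard error 0.21, edgeR adjusted p = 0.21), within the spread between mice. Without *Supt6*-KO mouse 4 it was 0.50 (edgeR adjusted p = 0.0043), which passes the p threshold but not the 2-fold limit. Library totals gave -0.43 (edgeR adjusted p = 0.058), and the length corrections gave 0.89 (edgeR adjusted p = 0.0035) with annotated lengths and 0.97 (edgeR adjusted p = 0.0023) with lengths read back from the deposited values, both short of 2-fold.

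*Slc39a14* (NCBI gene 213053, chr14:70303467-70351452, reverse strand), the importer ZIP14, which carries zinc, iron and manganese, showed the mirror image of this pattern. It had 19.1, 15.8, 13.7, 18.2 and 18.6 CPM in the controls and 9.57, 8.88, 10.3 and 19.2 CPM in the *Supt6*-KO mice. On this scale *Supt6*-KO mice 1 to 3 were below every control and mouse 4 was above every control. The deposited TPM, which has no TMM factor and is relative to length, puts mouse 4 at 3.3 TPM, below every control (4.28 to 7.61 TPM). The means were 17.1 ± 2.27 CPM (SD, n = 5) and 12.0 ± 4.84 CPM (SD, n = 4), with a log2 fold change of -0.51 (standard error 0.23, edgeR adjusted p = 0.063). With *Supt6*-KO mouse 4 left out, the log2 fold change was -0.84 (edgeR adjusted p = 0.00034), still short of 2-fold. Library totals gave a call at -1.16 (edgeR adjusted p = 0.0044), and a length correction with the deposited length scale gave 0.06 (edgeR adjusted p = 0.79).

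*Slc39a4* (NCBI gene 72027, chr15:76612383-76618506, reverse strand), the importer ZIP4, which takes up dietary zinc in the gut and whose loss in people causes the skin disorder acrodermatitis enteropathica, was near the lower limit of detection in skin. The control libraries held 36, 24, 31, 42 and 47 of its reads and those of *Supt6*-KO skin 2, 5, 9 and 5, in all 180 against 21. The groups did not overlap. The level was 0.962 ± 0.217 CPM (SD, n = 5) in the controls and 0.229 ± 0.138 CPM (SD, n = 4) in *Supt6*-KO skin, which is 23.8% of the control mean. *Slc39a4* fell, with a log2 fold change of -2.08 (standard error 0.39, edgeR adjusted p = 0.00059), and the exact permutation p was 0.0159, the smallest possible. Leaving out *Supt6*-KO mouse 4 gave -1.98 (edgeR adjusted p = 0.0017). The call held in every setting that tested the gene, including both length corrections, but a filter that asked each mouse for 10 counts left it out. Genes called lower were also found in the adipocyte, skeletal muscle, hair shaft, cartilage, endothelial, fibroblast, T cell and macrophage lists. The basal and differentiated keratinocyte lists held some too, and the neutrophil, stress keratin and melanocyte lists held none. Of all genes tested, 24.9% were lower. Which cells of the sample carry these few *Slc39a4* reads was not tested.

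Members were compared with each other only on a per-length scale. The deposited TPM values cover the 5 controls and *Supt6*-KO mouse 4. In the controls *Mt4* stood at 1759 ± 183 TPM (SD, n = 5), *Mt2* at 1699 ± 517 TPM and *Mt1* at 1307 ± 354 TPM, and the ranges of these 3 overlapped, so that their order is within the spread between mice. *Slc30a1* followed at 21.5 ± 4.26 TPM. *Slc39a14* at 5.95 ± 1.39 TPM, *Mtf1* at 4.43 ± 0.929 TPM and *Mt3*, a metallothionein best known from brain, at 3.5 ± 1.2 TPM formed the next step, each overlapping its neighbour. *Slc39a4* was lowest at 0.81 ± 0.274 TPM and its highest control, 1.17 TPM, was below the lowest *Mt3* value of 1.76 TPM. In *Supt6*-KO mouse 4 the order was the same, from 1281 TPM for *Mt4*, 937 TPM for *Mt2* and 847 TPM for *Mt1* down to 0.07 TPM for *Slc39a4*, and each of the 7 members and *Mt3* was below its lowest control on this scale.

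For *Supt6*-KO mice 1 to 3 levels per length were computed from the counts. With annotated transcript lengths, *Mt4* averaged 1970 TPM, *Mt2* 315 and *Mt1* 168, and with lengths read back from the deposited values *Mt4* averaged 4356 TPM, *Mt1* 390 and *Mt2* 325. *Mt4* was thus the most abundant member on both scales, while the order of *Mt1* and *Mt2* changed with the length used. The annotated length of *Mt1* is that of its longest transcript, 1085 bases, whereas the transcript whose coding sequence is printed above has 549 bases. Values on the annotated scale are not comparable with the deposited TPM.

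The change of a gene between the groups went with the length of its transcript across the whole table. The median log2 fold change was 1.48 for the 480 genes with a longest transcript under 750 bases and 0.89 for the 2163 genes from 750 to 1500 bases. It was 0.21 for 5528 genes from 1500 to 3000 bases, -0.38 for 6127 genes from 3000 to 6000 bases and -0.96 for 2065 genes of 6000 bases and more. Short genes were thus higher on the whole and long genes lower. Against this trend *Mt2*, at 511 bases and -0.49, lay below the median of its length class, and *Mt4*, at 398 bases and 2.63, lay above it. *Mt1*, at 1085 bases and 0.00, lay below the median of its own class, 0.89. *Mtf1*, at 7631 bases and 0.26, and *Slc30a1*, at 5244 bases and 0.31, lay above the medians of their classes. *Slc39a14*, at 4926 bases, lay close to its class, and *Slc39a4*, at 2750 bases, well below its own. The cause of the trend was not tested.

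**Figure D3:**
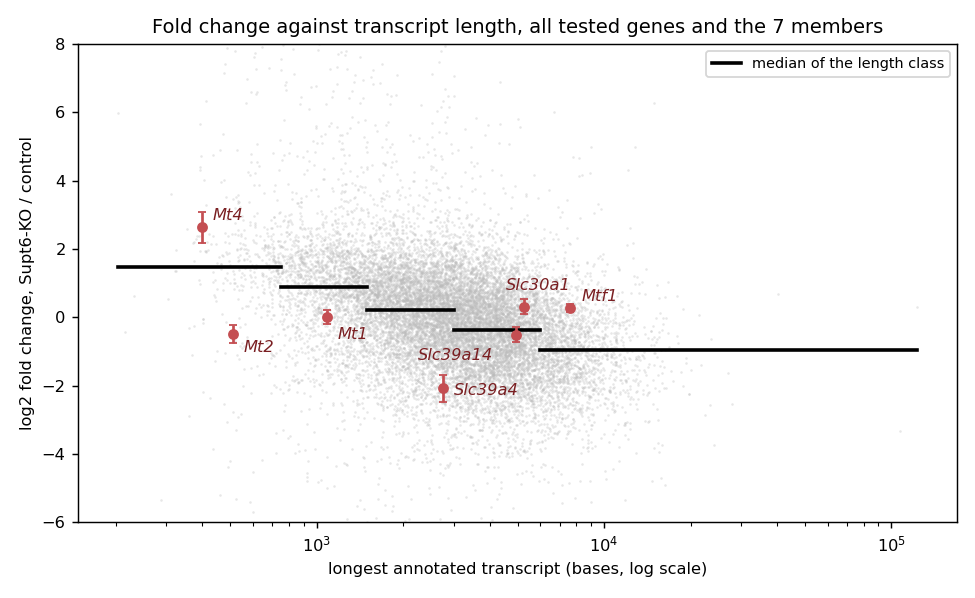
Log2 fold change of Supt6-KO over control (vertical axis) against the length of the longest annotated transcript in bases (horizontal log axis) for all tested genes with a length (grey), with the median of each of 5 length classes as a black line and the 7 members in red with bars of 1 standard error. The class medians go from 1.48 for the shortest to -0.96 for the longest transcripts, and Mt2 lies below and Mt4 above the median of the shortest class. The vertical axis stops at -6 and 8, and a few genes lie outside it.

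The wider zinc families were taken from fixed lists of 29 genes, of which 26 had a row and were tested. Of these, 5 were higher (19.2%), 3 were lower (11.5%) and 18 were called neither way, with a median log2 fold change of 0.23. The background shares are 20.9% and 24.9%. Among the metallothioneins, *Mt3* stayed near 0.5 CPM in both groups (0.493 ± 0.209 and 0.492 ± 0.288 CPM, SD), and *Mt4* was the only one of 4 to be called under TMM scaling. With the length trend removed, *Mt3* was called lower, at -1.49 (edgeR adjusted p = 0.0041) with annotated lengths and -1.64 (edgeR adjusted p = 0.0023) with the deposited length scale.

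Of 8 exporters tested, *Slc30a4* was higher and *Slc30a2* lower, 12.5% each way against 20.9% and 24.9% of all genes. *Slc30a4*, which loads zinc into vesicles, had 129, 146, 140, 116 and 100 CPM in the controls and 303, 330, 324 and 249 CPM in the *Supt6*-KO mice. The groups were well apart, mouse 4 included, and the log2 fold change was 1.26 (standard error 0.14, edgeR adjusted p = 1.4e-05). *Slc30a2*, another vesicular exporter, was at 2.60 ± 0.331 CPM and 0.960 ± 0.194 CPM and fell by 1.44 on the log2 scale (edgeR adjusted p = 9.9e-05). Both calls held under either length correction, and that of *Slc30a4* was lost with library totals, at 0.55. *Slc30a9*, *Slc30a6*, *Slc30a5* and *Slc30a7* were above every control in all 4 *Supt6*-KO mice but by less than 2-fold, with log2 fold changes of 0.69, 0.74, 0.26 and 0.20, where 28.9% of all genes were above every control. *Slc30a3* had almost no counts.

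Of 13 importers tested, 3 were higher (23.1%) and 2 were lower (15.4%), against 20.9% and 24.9% of all genes. *Slc39a6*, the importer ZIP6, had 63.0 to 75.1 CPM in the controls and 141, 140, 159 and 160 CPM in the *Supt6*-KO mice, and its log2 fold change was 1.11 (standard error 0.11, edgeR adjusted p = 4.2e-06). *Slc39a2*, the importer ZIP2 known from the epidermis, had 4.68 to 6.09 CPM in the controls and 21.1, 15.1, 10.9 and 5.75 CPM in the *Supt6*-KO mice, with a log2 fold change of 1.39 (edgeR adjusted p = 0.0014). Here too mouse 4 lay among the controls, as it did for *Mt4*. *Slc39a8*, the importer ZIP8, was at 13.7 ± 8.33 and 30.2 ± 13.6 CPM (SD), and its log2 fold change of 1.15 (edgeR adjusted p = 0.025) lost its call without *Supt6*-KO mouse 2 (0.78) or without control mouse 2 (1.06), 4 (1.04) or 5 (0.96), and under a replicate block (0.98).

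On the other side, *Slc39a13*, the importer ZIP13 that connective tissue needs, was at 13.0 ± 1.56 and 6.02 ± 1.32 CPM (SD) and fell by 1.10 on the log2 scale (edgeR adjusted p = 0.00018), together with *Slc39a4*. Of the fibroblast markers, 2 of 5 fell in the same mice, against 24.9% of all genes, and their part in this fall was not tested. *Slc39a1* and *Slc39a3*, importers of the plasma membrane, passed the p threshold but not 2-fold, with log2 fold changes of 0.85 and -0.91. For each the groups did not overlap, where 28.9% of all genes were above every control and 31.8% below. With library totals 0 of the 13 importers were called higher and 6 lower, where 1470 of all 16426 genes tested were higher and 6802 lower.

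**Figure D4:**
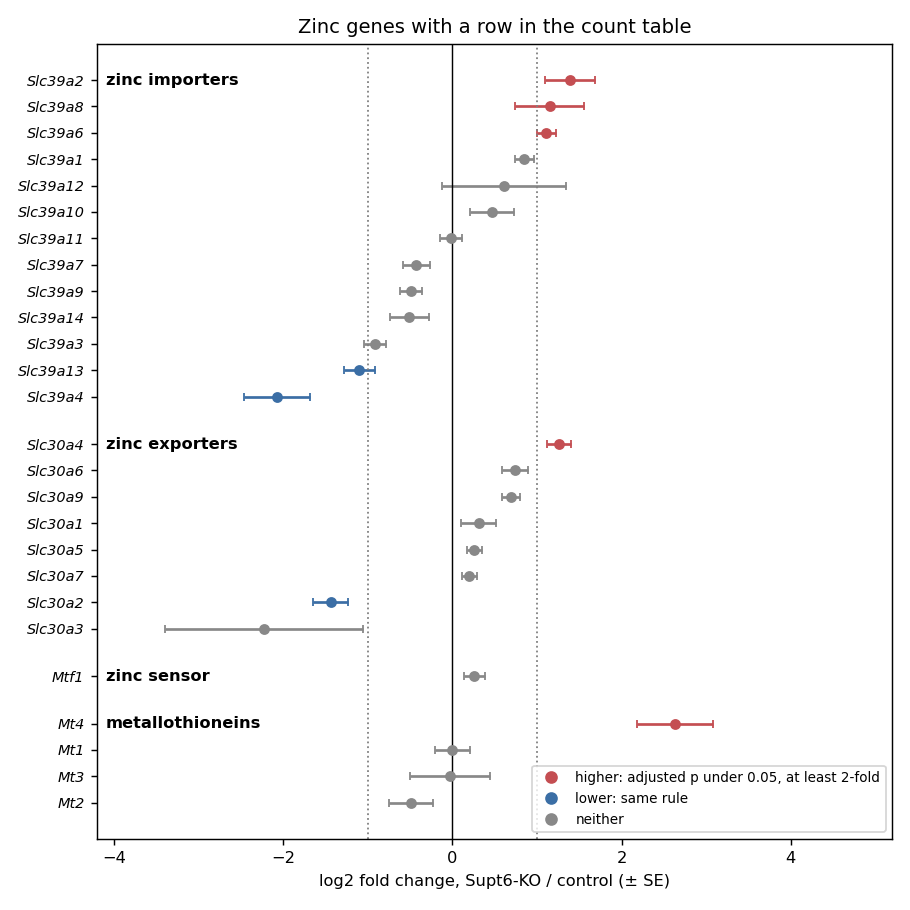
Log2 fold change of Supt6-KO over control (horizontal axis, bars of 1 standard error, n = 5 and 4 mice) for the 26 zinc genes with a row, grouped as importers, exporters, the zinc sensor Mtf1 and metallothioneins, with dotted lines at a 2-fold change. Genes called higher (5) are red, genes called lower (3) are blue and the other 18 are grey, and Mt4 has the largest value at 2.63.

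Copper and iron genes were read for comparison, since metallothioneins also bind copper and ZIP14 also carries iron. Of 7 copper-handling genes tested, 5 were higher (71.4%, against 20.9% of all genes) and 0 lower by edgeR, with a median log2 fold change of 1.18. The lowest estimate was 0.29, and DESeq2 also called 0 copper genes lower, whereas each length correction called 1 lower, the copper-zinc superoxide dismutase *Sod1* (-1.08 with lengths read back from the deposited values). The copper chaperone *Atox1* had 61.7 to 99.1 CPM in the controls and 403, 484, 465 and 152 CPM in the *Supt6*-KO mice, a log2 fold change of 2.18 (edgeR adjusted p = 5e-05). The copper importers *Slc31a1* and *Slc31a2* were at 1.18 and 1.2, the copper pump *Atp7a* at 1.07 and the mitochondrial copper chaperone *Cox17* at 1.25. For *Slc31a2*, *Supt6*-KO mice 1 to 3 had 305, 361 and 324 CPM, while mouse 4, at 119 CPM, lay among the controls (85.2 to 141 CPM). With library totals *Atox1* alone stayed called (1.43), while *Slc31a1* (0.48), *Slc31a2* (0.46), *Atp7a* (0.36) and *Cox17* (0.53) lost their calls. The call for *Atp7a* was also lost without *Supt6*-KO mouse 3 (0.97) and with upper-quartile factors (0.99). Under the annotated and the deposited length corrections in turn, *Atox1* (0.67 and 0.44) and *Slc31a2* (0.90 and 0.98) lost their calls and *Slc31a1* kept its own at 1.52 in both. *Cox17* was at 1.5, with its call, under the annotated lengths and at -0.68 under the deposited scale, so its direction depends on the length used.

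Of 13 iron-handling genes, 3 were higher (23.1%) and 2 lower (15.4%), against 20.9% and 24.9% of all genes, with a median log2 fold change of 0.44. The transferrin receptor *Tfrc* (1.13), the siderophore-binding *Lcn2* (1.92) and the iron exporter *Slc40a1* (1.00) rose, and the iron regulatory protein gene *Aco1* and the ferrireductase *Steap3* fell (-1.85 and -1.68). *Slc40a1* was at 63.0 to 84.8 CPM in the controls and at 157, 206, 181 and 38.8 CPM in the *Supt6*-KO mice, so mouse 4 was below every control. Its call was lost without any one of 6 mice and under a replicate block (0.75), and that of *Tfrc* without *Supt6*-KO mouse 4 (0.98). The ferritin genes *Fth1* and *Ftl1*, which store iron, were at 0.44 and 0.58, short of 2-fold. Both were above every control in all 4 *Supt6*-KO mice, as were 28.9% of all genes.

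The calgranulins *S100a8* and *S100a9*, which bind zinc outside the cell and are made by neutrophils and by stressed keratinocytes, rose in every *Supt6*-KO mouse. *S100a8* had 9.20, 13.8, 11.1, 1.92 and 4.96 CPM in the controls and 1924, 2157, 2663 and 931 CPM in the *Supt6*-KO mice, and *S100a9* went from 12.3 ± 7.08 to 2715 ± 895 CPM (SD). Their log2 fold changes were 7.87 and 7.78 (edgeR adjusted p = 1.1e-06 and 6.6e-07). The neutrophil markers summed to 3.92 to 9.31 CPM in the controls and to 38.4, 35.8, 83.6 and 27.7 CPM in the *Supt6*-KO mice, with *Retnlg* the most abundant and *Ly6g* at a mean of 0.222 CPM. All 4 stress keratins were called higher, and *Krt6a*, *Krt6b* and *Krt16* were above every control in all 4 *Supt6*-KO mice, whereas *Krt17*, at 241 and 314 CPM in mice 2 and 3, overlapped the controls (184 to 349 CPM). The share of either cell type in the calgranulin levels was not tested.

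Genes that lie beside the metallothionein cluster were examined because neighbours can share their regulation. On the *Mt4* side, *Nudt21* rose (log2 fold change 1.42), *Ogfod1* was at -0.48 without a call and *Bbs2* fell by 1.11 on the log2 scale. On the *Mt1* side, *Nup93* was at 0.02 and *Herpud1* at -0.37 without calls, and *Slc12a3* was called higher at 1.99 but from 0.0321 to 0.143 CPM, a nearly silent gene. Inside the cluster, under TMM scaling, *Mt4* rose while *Mt3*, *Mt2* and *Mt1* were not called, and 0 other genes with a row lie between them. With either length correction *Mt4* lost its call, and *Mt2* and *Mt3* were called lower. *Mt1* was called lower with the deposited length scale. Of the 6 neighbours, 2 were called higher and 1 lower, where the shares over all genes were 20.9% and 24.9%.

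Finally, the genes whose levels most resembled each member over the 9 mice were listed by Pearson correlation of log2 CPM among genes with a mean of at least 1 CPM. These values mix the difference between the groups with the spread inside them, and all points share their libraries, so they describe these 9 mice and carry no test. For *Mt4* they were *Hint3* (0.995), *Tnfsf13* (0.994) and *Ccdc28a* (0.993), for *Slc39a14* *Ints3* (0.993), *Smc3* (0.985) and *Aars* (0.982), and for *Slc39a4* *Ccdc191* (0.987), *Gli2* (0.984) and *Hif3a* (0.983). *Slc30a1* was most like *Csnk1e* (0.966), *Mtf1* most like *Mpeg1* (0.938), *Mt1* most like *Nfil3* (0.921) and *Mt2* most like *Rbm22* (0.947). The highs and lows of *Mt4* and *Slc39a14* were opposed, at -0.929.

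*Mt1* and *Mt2* correlated at 0.787 over the 9 mice. When each mouse was taken as its deviation from its own group mean, they correlated at 0.960, and each was the second closest gene to the other among the 13563 compared. The closest by deviations was *Nr4a3* for *Mt1* (0.974) and *Ripk4* for *Mt2* (0.975). Mouse by mouse within a group the pair therefore went up and down together, and between the groups their ratio differed.

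**Figure D5:**
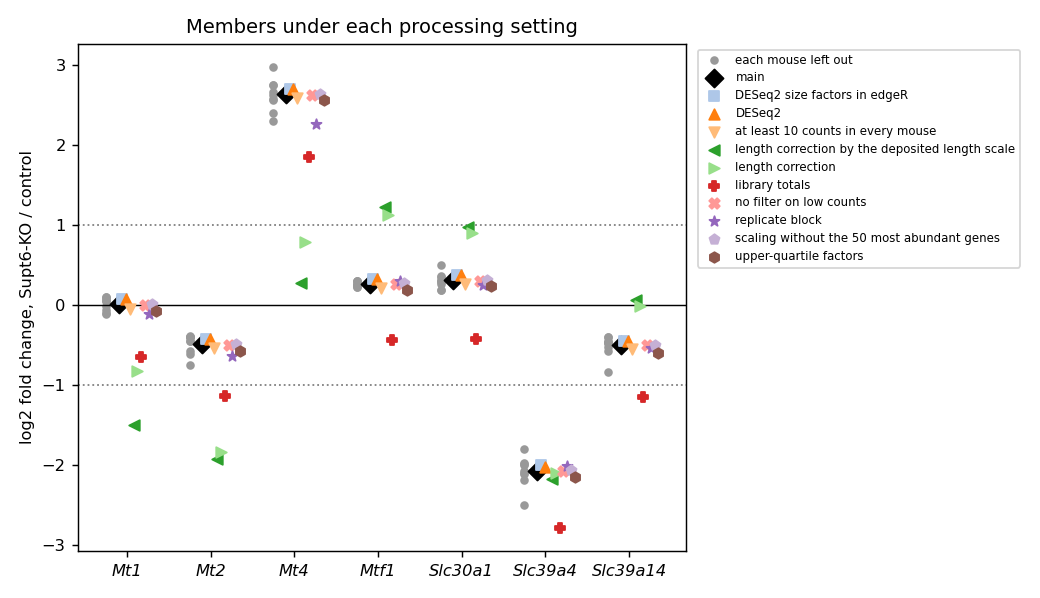
Log2 fold change of Supt6-KO over control (vertical axis) of the 7 members (horizontal axis) under each processing setting, with the main fit as black diamonds, each left-out mouse as grey points and dotted lines at a 2-fold change. Slc39a4 stays at or below -1.80 in every setting that tested it, Mt4 falls to 0.78 and 0.27 under the length corrections, and Mt1 moves from 0.00 to -1.51.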

How the data were processed

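Bulk RNA-Seq was analysed for 5 control and 4 *Supt6*-KO mice. The authors aligned reads to mm10 and deposited RSEM's estimated counts for each gene, not normalized between mice, and TPM values for 6 of the 9 mice. Per the labels, Bowtie2 2.3.4.3, RSEM 1.3.1, HISAT and DESeq2 1.4.5 were used, and the annotation is not given in the sources used here. Of the estimated counts, 9.001% were not whole, and all were rounded. Of the row identifiers, 17917 matched a RefSeq gene and 26 did not. Coordinates are those of RefSeq genes on GRCm38, which is the mm10 build.

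Genes with a summed count of at least 10 were tested with edgeR 4.0.16 in R 4.3.3 (TMM factors 1.198 to 1.315 in controls and 0.674 to 0.91 in *Supt6*-KO mice, quasi-likelihood test, no covariates, Benjamini-Hochberg adjustment over all genes). Standard errors were derived from the F statistic. Single genes also had a two-sided exact permutation test on log2 CPM with a prior count of 2. Alternatives were DESeq2 1.42.0, other scalings and filters, a replicate block, each mouse left out and a per-mouse trend on GENCODE transcript length, for 17855 genes. A second length correction, with lengths read back from deposited counts and TPM for 14548 genes, was added after seeing the data.

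Members and lists were chosen with earlier results of these data known, and no test was run over a list. Genes are named if they are *Supt6*, a member, on a fixed list, a cell type marker, among the 3 nearest genes on each side of the cluster, or among the 3 genes most correlated with a member. The 95% intervals are confidence intervals of the log2 fold change, built from its standard error, and are not ranges of the mice. Columns of per-sample values not mapped to a mouse numbered 0. The test was tried on simulated counts.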

Additional observations from a re-analysis of the deposited data

Results flagged for a closer look

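Within each group, a mouse was singled out when its gap to the nearest other mouse was a very large part of the range of its group. In the groups singled out this part was 0.791 to 1. Other groups with a wide gap were not singled out, such as *Slc40a1* with *Supt6*-KO mouse 4 at 38.8 CPM against 157 to 206 CPM. Of 98 groups of values examined for *Supt6*, the members and the metal gene lists, 6 were singled out, where chance alone gives about 1 in 20, or 4.9. *Supt6*-KO mouse 4 was the one singled out for *Slc39a14* at 19.2 CPM (group median 9.93), for *Slc39a10*, a zinc importer, at 69.8 CPM (group median 32.3) and for *Slc30a5*, a zinc exporter of the secretory pathway, at 80.4 CPM (group median 72.6). It is also the mouse with 22838 CPM of stress keratins and 17109 CPM of differentiated keratinocyte markers. *Supt6*-KO mouse 3 had *Slc30a3* at 0.0457 CPM against a group median of 0, which rests on very few counts. Control mouse 4 had *Slc39a2* at 6.09 CPM (group median 4.82), and control mouse 1 had *Hmox1*, the heme-degrading enzyme, at 62.9 CPM (group median 55.5). The causes were not tested.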

How the results depend on the processing

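Scaling and transcript length decided most of what changed. With library totals, *Mt1* was at -0.66, *Mt2* at -1.14 and *Slc39a14* at -1.16, *Mtf1* turned to -0.44 and *Slc30a1* to -0.43. The calls over all 16426 genes tested then numbered 1470 higher and 6802 lower, the zinc genes 1 and 9, the exporters 0 and 2, the importers 0 and 6, the copper genes 1 higher and the iron genes 1 and 4. With annotated lengths, *Supt6* was at -0.79, *Mt1* at -0.83, *Mt2* at -1.84, *Mt4* at 0.78 and *Mtf1* at 1.12. In that setting 8 zinc genes were higher and 5 lower, 3 exporters were higher, and 3 copper genes were higher and 1 lower. Of all 16363 genes tested there, 2977 were higher and 3391 lower. With the length scale chosen after seeing the data, *Supt6* was at -0.75, *Mt1* at -1.51, *Mt2* at -1.93, *Mt4* at 0.27, *Mtf1* at 1.22 and *Slc39a14* at 0.06. It called 6 zinc genes lower, 2 exporters higher, and 2 copper genes higher and 1 lower, against 2577 higher and 3041 lower of all 14516 genes tested. *Mt1*, near 0.00, also took the other sign with a filter of 10 counts in every mouse (-0.05) and with upper-quartile factors (-0.08). That filter left 1 importer lower, and 2627 genes higher and 3073 lower of all 13151 tested. Levels of *Supt6*-KO mice 1 to 3 on the deposited length scale were 390 for *Mt1*, 4356 for *Mt4*, 1.72 for *Mtf1*, 9.70 for *Slc30a1* and 1.05 for *Slc39a14*, against 168, 1970, 3.54, 19.5 and 2.10 with annotated lengths. The cause of these shifts was not tested.

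Replicate numbers occur in both groups. The deviations of mice with the same number correlated at -0.011, 0.243, 0.222 and 0.059, and those of mice with different numbers at -0.227 to 0.255. Whether mice with the same number shared anything else was not tested. A replicate block over 8 mice gave 3139 genes higher and 3836 lower, *Mt1* at -0.12, *Mt2* at -0.64, *Mt4* at 2.26 and *Slc39a4* at -2.02, and changed no call of a member or of *Supt6*. Among the list genes called without it, *Slc39a8* and *Slc40a1* lost their calls under it (0.98 and 0.75).

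With each mouse left out, *Supt6* ranged from -1.66 to -1.47, *Mt1* from -0.12 to 0.09, *Mt2* from -0.75 to -0.39, *Mt4* from 2.3 to 2.97, *Mtf1* from 0.22 to 0.30, *Slc30a1* from 0.18 to 0.50, *Slc39a4* from -2.51 to -1.80 and *Slc39a14* from -0.84 to -0.40, and no member gained or lost its call. The counts ranged from 3248 to 3476 genes higher and 3845 to 4204 lower, 4 to 5 zinc genes higher and 3 to 4 lower, 1 to 2 exporters lower (2 without control mouse 5) and 2 to 3 importers higher. DESeq2, its size factors in edgeR, no filter on low counts and a scaling without the 50 most abundant genes changed no member's call. *Slc39a4*, with 2 to 9 counts in a *Supt6*-KO mouse, is limited by depth.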
